A study of Mus musculus with 12 samples.

Results

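The genes described here encode 8 enzymes that lengthen or desaturate fatty acids: the elongases Elovl1, Elovl2, Elovl3 and Elovl5, the desaturases Fads1, Fads2 and Fads3, and the stearoyl-CoA desaturase Scd2. They were chosen by symbol from the 23849 gene symbols of a liver RNA-seq table, with earlier results of these data known. All 8 are described, whatever their values, and 7 of the 8 were found on a line of their own symbol. Scd2 was listed only on a line that it shares with Mir5114, a microRNA gene that lies within it, so its values are those of both genes together. Because the mean of that line was under 1 FPKM (fragments mapped per kilobase of transcript, scaled to the mapped total), Scd2 is given by its values only. The other 7 were among 9806 symbols that were tested.

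Elongases work at the membrane of the endoplasmic reticulum, where they carry out the first and rate-limiting condensation step that adds carbon units from malonyl-CoA to an acyl-CoA. Desaturases of the same membrane take electrons from cytochrome b5 and insert a double bond at a set position of the chain. Dietary linoleic and α-linolenic acid pass through FADS2, ELOVL5, FADS1 and ELOVL2 in alternation to become arachidonic acid and DHA, and the liver is a main site of this synthesis. ELOVL1 and ELOVL3 act on saturated and monounsaturated chains, and stearoyl-CoA desaturases make monounsaturated acids such as oleic acid. The function of FADS3 is less well defined. Several of these genes are known targets of SREBP-1c, the lipogenic transcription factor encoded by Srebf1.

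The livers came from 12 male mice of a C57BL/6J background, 8 weeks old as the series describes them, all fed a high-fat diet (HFD). They received vehicle (Cntrl, drinking water) or Policaptil Gel Retard, a fiber complex that the labels call Libramed, over the last 2 of 6 weeks of HFD. The gavage was 200 µl, with the product at 20 mg/ml. Livers were taken at ZT0 or ZT12 (zeitgeber time, hours after lights on), which gave 4 groups with 3 mice and 3 libraries in each. Because gavage was given daily at ZT11, time since gavage differed between the times and cannot be told apart from time of day. Each mouse was killed at 1 time, so the times were compared between animals, no group on a normal diet was analysed here, and whole liver cannot tell fewer cells of a type apart from less RNA per cell.

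The libraries carried the marks of liver and of their labelled times. Ttr ranged from 6123 to 9230 FPKM and Apoa1 from 20223 to 32458 FPKM over the 12 libraries, although Alb was listed at 0 in all of them. Of 8 evening clock genes, 7 were higher at ZT12 over both treatments, and 3 of 4 tested morning clock genes were lower, with Cry1 higher. A pair of libraries stood apart. Libramed ZT12 replicate 3 held skeletal muscle transcripts (Acta1 16.4, Ckm 10.4, Tnnt3 10.3 and Myh4 4.55 FPKM), while each of these was at or under 0.0099 FPKM in the other 11 libraries. Cntrl ZT0 replicate 2 had 11.7 FPKM of Scd1, the major hepatic stearoyl-CoA desaturase, against 481 and 528 FPKM in the other mice of its group. The members' differences that moved most without these mice are given beside the results.

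In the mm10 genome (GRCm38) with GENCODE vM21 gene models, 5 of the 8 genes map to chromosome 19. Fads3 (chr19:10041569-10060110, plus strand), Fads2 (chr19:10062765-10101746, minus strand) and Fads1 (chr19:10182888-10196877, plus strand) lie within 155309 bases of each other, and Scd2 (chr19:44293674-44306864, plus strand) and Elovl3 (chr19:46131897-46135694, plus strand) lie farther along. Elovl1 is at chr4:118428093-118432953 (plus strand), Elovl2 at chr13:41182381-41220405 (minus strand) and Elovl5 at chr9:77917364-77984519 (plus strand). Elovl1 overlaps Cdc20 and Elovl3 overlaps Pitx3, both on the opposite strand, and reads shared by such pairs cannot be told apart if strand was not used in counting. Cdc20 was listed at up to 0.450 FPKM and Pitx3 at 0.612 to 8.14 FPKM, against at least 18.7 FPKM for Elovl1 and 63.3 FPKM for Elovl3.

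The promoters of 4 members are printed as a description, and these 4 were picked with their values known. Elovl1 and Elovl2 were called lower at ZT12 over both treatments. Elovl5, which varied widely between mice of a group, and Fads2, which had higher group means at ZT12, were not called. Whether the members differed from each other in time pattern was not tested. Each sequence is the 250 bases before a RefSeq transcript start (build GRCm38.p6), 5′ to 3′ on the gene's strand. Capitals mark letters of the searched motifs, which were the E-box CACGTG, the D-box TTATGCAA or TTACGTAA, the sterol element TCACCCCAC and the CCAAT box, all on both strands, and no match overlapped another.
Elovl1, chr4:118427843-118428092, plus strand: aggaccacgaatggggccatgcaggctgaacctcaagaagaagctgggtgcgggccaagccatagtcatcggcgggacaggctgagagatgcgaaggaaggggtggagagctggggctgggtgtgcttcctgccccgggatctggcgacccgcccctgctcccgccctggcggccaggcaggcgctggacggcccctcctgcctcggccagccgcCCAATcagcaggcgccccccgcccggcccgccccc
Elovl2, chr13:41220404-41220653, minus strand: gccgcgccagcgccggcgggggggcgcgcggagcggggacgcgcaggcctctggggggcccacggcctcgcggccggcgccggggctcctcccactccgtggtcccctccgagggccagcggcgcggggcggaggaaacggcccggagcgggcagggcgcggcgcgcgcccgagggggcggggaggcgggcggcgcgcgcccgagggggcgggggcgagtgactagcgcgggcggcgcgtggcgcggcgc
Elovl5, chr9:77917115-77917364, plus strand: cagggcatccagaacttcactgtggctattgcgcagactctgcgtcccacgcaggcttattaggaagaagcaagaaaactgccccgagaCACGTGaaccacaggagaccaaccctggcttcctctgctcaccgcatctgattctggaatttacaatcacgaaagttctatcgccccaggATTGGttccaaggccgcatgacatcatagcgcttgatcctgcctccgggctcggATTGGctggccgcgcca
Fads2, chr19:10101504-10101753, minus strand: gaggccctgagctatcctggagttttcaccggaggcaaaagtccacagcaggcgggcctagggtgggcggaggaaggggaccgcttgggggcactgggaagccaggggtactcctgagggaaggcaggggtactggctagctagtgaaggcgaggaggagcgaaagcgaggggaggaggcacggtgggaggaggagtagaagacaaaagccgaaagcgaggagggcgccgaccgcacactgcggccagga

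The Elovl5 window held an E-box that starts 161 bases before the transcript start and a CCAAT box on the opposite strand (ATTGG) at 71 and at 17 bases before it. The Elovl1 window held a CCAAT box 35 bases before the start, and none of the searched motifs was found in the Elovl2 and Fads2 windows. Another RefSeq window each of Elovl1 and Elovl2, not printed, held none either, and the Fads3 window held a CCAAT box 106 bases and its reverse (ATTGG) 78 bases before the start. Of 32851 RefSeq promoter windows of this length, 6.02% held the E-box, 0.804% the D-box, 0.496% the sterol element and 33.8% the CCAAT box. These matches are descriptions of the letters only. The table had no entry for Elovl3, Fads1 and Scd2.

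The first comparison asked how each enzyme's transcript differed between the start (ZT12) and the end (ZT0) of the active phase. Of the elongases, Elovl3 fell by 1.91 on the log2 scale in Cntrl mice and fell by 1.72 in Libramed mice, and Elovl1 and Elovl2 fell by smaller amounts over both treatments. Elovl5 and the 3 Fads genes did not pass the test. Differences are on the scale of log2(FPKM + 1), tested with limma and adjusted by the method of Benjamini and Hochberg over all 9806 symbols, and a gene was called at an adjusted p under 0.05. In Cntrl mice, 1 of 7 tested members was lower at ZT12 (Elovl3), beside 4.78% of all symbols. In Libramed mice the same gene was called, 1 of 7 lower beside 5.36%.

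**Figure D1:**
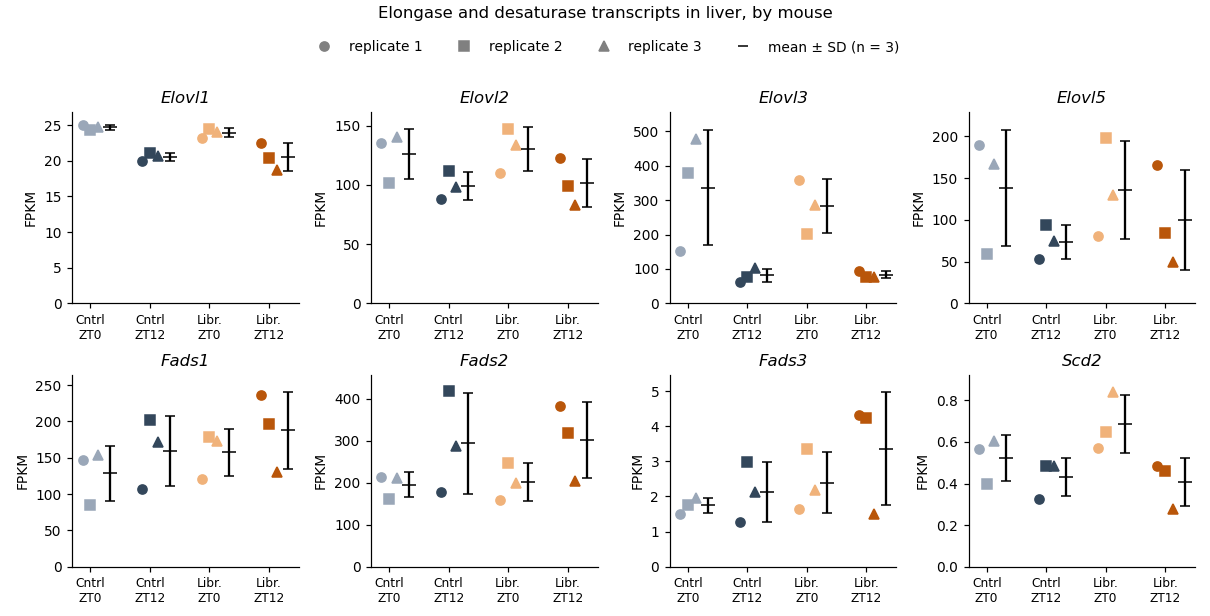
FPKM of the 8 genes in each of the 12 mice, with the replicate number as the symbol and the group mean ± SD (n = 3) in black. Elovl1 and Elovl3 have no overlap between ZT0 and ZT12 in either treatment, while the Fads genes overlap between the times.

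Elovl3, an elongase of saturated and monounsaturated chains, showed the widest difference between the times. In Cntrl mice it was at 153, 379 and 479 FPKM at ZT0 and at 63.3, 78.1 and 102 FPKM at ZT12. In Libramed mice it was at 359, 203 and 286 FPKM at ZT0 and at 94.8, 77.9 and 77.2 FPKM at ZT12. Every ZT0 mouse was above every ZT12 mouse of its treatment, and the ZT0 mice covered a wider range than the ZT12 mice. Group means ± SD (n = 3) were 337 ± 167 and 81.1 ± 19.5 FPKM in Cntrl and 283 ± 78.3 and 83.3 ± 9.99 FPKM in Libramed. The log2 difference was -1.91 (SE 0.42, limma adjusted p = 0.0348) in Cntrl and -1.72 (SE 0.20, limma adjusted p = 0.00440) in Libramed. The corresponding folds were 0.265 (95% interval 0.134 to 0.525) and 0.304 (0.218 to 0.424).

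The call of Elovl3 in Cntrl depended on single libraries, as calls did among all symbols. Of 9806 symbols, 469 were called lower in Cntrl with all 6 libraries, and 106 to 405 with 1 left out. The call of Elovl3 was lost when any 1 of the 6 libraries other than Cntrl ZT0 replicate 1 was left out, with log2 differences from -2.09 to -1.58 and adjusted p from 0.0767 to 0.114 over those 5 omissions. Without Cntrl ZT0 replicate 2 the difference was -1.75 (adjusted p = 0.0794). The call in Libramed was kept under every such omission, and without Libramed ZT12 replicate 3, the library with muscle transcripts, the difference was -1.67 (adjusted p = 0.0199).

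Elovl1, which makes very long saturated and monounsaturated chains for sphingolipids, had the narrowest relative range of the members within each group. In Cntrl mice it was at 25.0, 24.3 and 24.8 FPKM at ZT0 and at 19.9, 21.1 and 20.6 FPKM at ZT12. In Libramed mice it was at 23.2, 24.5 and 24.0 FPKM at ZT0 and at 22.5, 20.3 and 18.7 FPKM at ZT12. The times did not overlap in either treatment. Group means ± SD (n = 3) were 24.7 ± 0.357 and 20.5 ± 0.587 FPKM in Cntrl and 23.9 ± 0.629 and 20.5 ± 1.91 FPKM in Libramed. The log2 difference was -0.25 (SE 0.07, limma adjusted p = 0.0677) in Cntrl and -0.21 (SE 0.09, limma adjusted p = 0.159) in Libramed, so neither passed alone. In each treatment, 2 of 7 tested members (Elovl1 and Elovl3) had every ZT12 mouse below every ZT0 mouse. Of all symbols, 15.8% did so in Cntrl and 15.8% in Libramed, and the share that did so in both was not counted. No tested member had every ZT12 mouse above every ZT0 mouse, beside 17.4% of all symbols in Cntrl and 19.0% in Libramed.

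Elovl2, the elongase of the last steps toward DHA, overlapped between the times. In Cntrl mice it was at 135, 102 and 140 FPKM at ZT0 and at 88.0, 112 and 98.0 FPKM at ZT12. In Libramed mice it was at 110, 147 and 134 FPKM at ZT0 and at 123, 98.8 and 83.2 FPKM at ZT12. The lowest mouse at ZT0 was below the highest mouse at ZT12 in both treatments. Group means ± SD (n = 3) were 126 ± 21.0 and 99.2 ± 11.8 FPKM in Cntrl and 130 ± 18.7 and 102 ± 19.9 FPKM in Libramed. The log2 difference was -0.33 (SE 0.15, limma adjusted p = 0.210) in Cntrl and -0.36 (SE 0.17, limma adjusted p = 0.197) in Libramed.

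Averaged over both treatments in a fit of the 12 libraries, 3 of 7 tested members fell at ZT12, beside 14.1% of all symbols, and 0 rose, beside 15.9%. They were Elovl3 (log2 difference -1.82, SE 0.25, limma adjusted p = 0.000412), Elovl1 (-0.23, SE 0.05, adjusted p = 0.00636) and Elovl2 (-0.35, SE 0.12, adjusted p = 0.0476). Without Libramed ZT12 replicate 3 the values were -1.79 (adjusted p = 0.00158), -0.20 (adjusted p = 0.0144) and -0.28 (adjusted p = 0.107), so that the call of Elovl2 was lost. It was also lost without Cntrl ZT0 replicate 1 or 3, Cntrl ZT12 replicate 1 or 3, Libramed ZT0 replicate 2 or 3, or Libramed ZT12 replicate 2, and its adjusted p ranged from 0.0191 to 0.107 over the 12 omissions. Elovl1 and Elovl3 were called in all of them.

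Elovl5, which elongates the polyunsaturated acids that FADS2 has desaturated, differed widely between mice of a group. In Cntrl mice it was at 189, 59.3 and 167 FPKM at ZT0 and at 53.1, 93.8 and 74.4 FPKM at ZT12. In Libramed mice it was at 80.3, 198 and 129 FPKM at ZT0 and at 166, 83.9 and 49.5 FPKM at ZT12. The highest and the lowest mouse of Cntrl ZT0 differed 3.19-fold, and those of Libramed ZT12 3.36-fold. Group means ± SD (n = 3) were 139 ± 69.5 and 73.8 ± 20.4 FPKM in Cntrl and 136 ± 59.0 and 99.8 ± 60.0 FPKM in Libramed. The log2 difference was -0.77 (SE 0.44, limma adjusted p = 0.309) in Cntrl and -0.52 (SE 0.47, limma adjusted p = 0.517) in Libramed. Cntrl ZT0 replicate 2, the mouse with little Scd1, also had the lowest Elovl5 of its group. Without it the difference in Cntrl was -1.30 (adjusted p = 0.0282), which passed the test. Leaving out the lowest ZT0 value is bound to widen a fall, so this pass is no support for one. Without Libramed ZT12 replicate 3, the mouse with the lowest Elovl5 of its group, the difference in Libramed was -0.11 (adjusted p = 0.906). Over both treatments the difference was -0.65 (SE 0.36, adjusted p = 0.204), -0.91 (adjusted p = 0.0534) without the former mouse and -0.44 (adjusted p = 0.401) without the latter.

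Fads2, the delta-6 desaturase that opens the pathway, had the highest level of the members at ZT12 in every group mean. In Cntrl mice it was at 215, 161 and 211 FPKM at ZT0 and at 178, 418 and 288 FPKM at ZT12. In Libramed mice it was at 159, 248 and 199 FPKM at ZT0 and at 383, 318 and 204 FPKM at ZT12. In both treatments 2 of the 3 ZT12 mice were above every ZT0 mouse, and the remaining one lay within their range. Group means ± SD (n = 3) were 196 ± 29.9 and 295 ± 120 FPKM in Cntrl and 202 ± 44.6 and 302 ± 90.9 FPKM in Libramed. The log2 difference was 0.51 (SE 0.30, limma adjusted p = 0.312) in Cntrl and 0.55 (SE 0.25, limma adjusted p = 0.203) in Libramed. Over both treatments it was 0.53 (SE 0.22, adjusted p = 0.0832), and it passed without Libramed ZT12 replicate 3 (0.66, adjusted p = 0.0396) or without Cntrl ZT12 replicate 1 (0.69, adjusted p = 0.0203), the libraries with its lowest ZT12 values.

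Fads1, the delta-5 desaturase that forms arachidonic acid, did not differ beyond the spread. In Cntrl mice it was at 147, 84.6 and 154 FPKM at ZT0 and at 107, 202 and 171 FPKM at ZT12. In Libramed mice it was at 120, 179 and 174 FPKM at ZT0 and at 236, 196 and 130 FPKM at ZT12. The times overlapped in both treatments. Group means ± SD (n = 3) were 128 ± 38.1 and 160 ± 48.4 FPKM in Cntrl and 158 ± 32.5 and 188 ± 53.6 FPKM in Libramed. The log2 difference was 0.31 (SE 0.30, limma adjusted p = 0.557) in Cntrl and 0.23 (SE 0.24, limma adjusted p = 0.586) in Libramed. It was 0.039 (adjusted p = 0.944) in Cntrl without Cntrl ZT0 replicate 2 and 0.47 (adjusted p = 0.209) in Libramed without Libramed ZT12 replicate 3.

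Fads3 and Scd2 were the members with little transcript in these livers. Fads3 was at 1.51, 1.76 and 1.96 FPKM in Cntrl ZT0, at 1.28, 2.98 and 2.13 FPKM in Cntrl ZT12, at 1.64, 3.36 and 2.18 FPKM in Libramed ZT0 and at 4.32, 4.25 and 1.50 FPKM in Libramed ZT12. Its log2 difference was 0.16 (SE 0.20, limma adjusted p = 0.663) in Cntrl and 0.31 (SE 0.32, limma adjusted p = 0.575) in Libramed, where it was 0.67 (adjusted p = 0.117) without Libramed ZT12 replicate 3. The times overlapped in both treatments, and a difference of genes this low is understated by the added 1 FPKM. The line of Scd2 was at 0.565, 0.397 and 0.606 FPKM in Cntrl ZT0, at 0.324, 0.483 and 0.485 FPKM in Cntrl ZT12, at 0.571, 0.647 and 0.841 FPKM in Libramed ZT0 and at 0.486, 0.460 and 0.277 FPKM in Libramed ZT12. The times did not overlap in Libramed mice and overlapped in Cntrl mice.

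The order of the listed FPKM, which are scaled by length, was not the same at the ends of the active phase. Scaling by length does not make every listed level true, as Alb at 0 FPKM in these livers shows. By group means in Cntrl, the order at ZT0 was Elovl3, Fads2, Elovl5, Fads1, Elovl2, Elovl1, Fads3 and Scd2, and at ZT12 it was Fads2, Fads1, Elovl2, Elovl3, Elovl5, Elovl1, Fads3 and Scd2. From Elovl3 to Elovl2 at ZT0, each gene's mice overlapped those of the next in order, and so did those from Fads2 to Elovl5 at ZT12. Elovl1 was below the 5 leading genes in every mouse, and Fads3 was below Elovl1 in every mouse. In Libramed the order at ZT0 placed Fads1 before Elovl5, and the order at ZT12 placed Elovl5 before Elovl3.

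Ratios between members within a mouse were read next. Of 21 ratios among the 7 tested members, 9 showed no overlap between ZT0 and ZT12, in the same direction, in both treatments, and so did 4 of the 15 ratios that leave out Elovl3, beside 18.6% of the ratios between all pairs of tested symbols above 0 in every library. The ratios share genes, and those with Elovl3 carry its own difference. The 4 without Elovl3 were Elovl1/Fads2, Elovl2/Fads1, Elovl2/Fads2 and Elovl5/Fads2, all lower at ZT12. All but Elovl2/Fads1 hold Fads2, so they are not separate results. Elovl2/Fads2 was at 0.629, 0.631 and 0.664 in Cntrl ZT0 and at 0.495, 0.267 and 0.340 in Cntrl ZT12. It was at 0.695, 0.594 and 0.671 in Libramed ZT0 and at 0.320, 0.311 and 0.408 in Libramed ZT12. The 6 ZT0 mice lay between 0.594 and 0.695, and the 6 ZT12 mice lay between 0.267 and 0.495. Elovl5/Fads2 was at 0.881, 0.368 and 0.792 in Cntrl ZT0 and at 0.298, 0.224 and 0.259 in Cntrl ZT12, and at 0.506, 0.799 and 0.649 in Libramed ZT0 and at 0.433, 0.264 and 0.243 in Libramed ZT12. The ratios were computed after the single levels had been seen, and they were not tested.

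**Figure D2:**
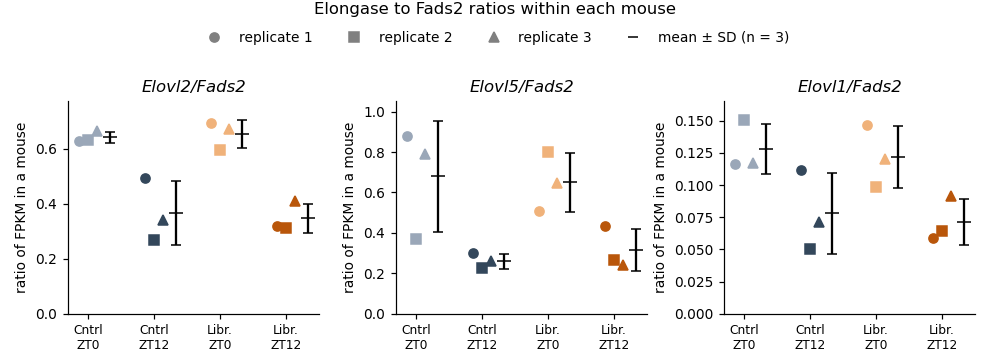
Ratio of the FPKM of 3 elongases to that of Fads2 within each of the 12 mice, with the group mean ± SD (n = 3) in black. Of the 21 ratios read, these are among the 9 without overlap between the times in both treatments. Elovl2/Fads2 lies between 0.594 and 0.695 in the ZT0 mice and between 0.267 and 0.495 in the ZT12 mice.

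The next comparison asked whether the tested product changed these transcripts. None of the 7 tested members passed the test at ZT0, beside 0.00% of all symbols, or at ZT12, beside 0.00%. At an unadjusted p under 0.05 there were 0 of 7 members at ZT0, beside 9.23% of all symbols, and 0 of 7 at ZT12, beside 6.74%. The lowest limma adjusted p among the members was 0.690 at ZT0 and 0.772 at ZT12, both for Fads3. Its log2 difference, Libramed minus Cntrl, was 0.28 (95% interval -0.15 to 0.71) at ZT0 and 0.43 (-0.36 to 1.22) at ZT12. For Fads1 it was 0.32 (-0.29 to 0.93) at ZT0 and 0.24 (-0.45 to 0.92) at ZT12. Without Cntrl ZT0 replicate 2 the difference at ZT0 was 0.047 for Fads1 and -0.48 for Elovl5. Without Libramed ZT12 replicate 3 the difference at ZT12 was 0.48 for Fads1, 0.71 for Elovl5, 0.33 for Fads2 and 0.79 for Fads3, and no member passed in either case (adjusted p of at least 0.533).

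The width of these intervals sets what 3 mice a group could show. For Elovl1 the fold of Libramed over Cntrl was 0.969 (95% interval 0.855 to 1.10) at ZT0 and 0.997 (0.868 to 1.14) at ZT12. For Elovl2 it was 1.04 (0.797 to 1.36) at ZT0 and 1.02 (0.788 to 1.31) at ZT12. For Elovl5 it was 1.03 (0.464 to 2.28) at ZT0 and 1.23 (0.611 to 2.47) at ZT12. The interval of Elovl1 was narrow and that of Elovl5 was wide. For Elovl3 the fold was 0.909 (0.456 to 1.81) at ZT0 and 1.04 (0.780 to 1.39) at ZT12, and for Fads2 it was 1.02 (0.752 to 1.39) at ZT0 and 1.05 (0.596 to 1.85) at ZT12.

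Over both times, 0 of 7 members passed, beside 0.00% of all symbols, and 0 of 7 had an unadjusted p under 0.05, beside 10.5%. The largest difference was that of Fads3 (0.36, SE 0.21, limma adjusted p = 0.575). The interaction, which asks whether the time difference itself differed between the treatments, gave 0 of 7 members, beside 0.00%, and 0 of 7 at an unadjusted p under 0.05, beside 6.63%. For Elovl3 the interaction was 0.20 (95% interval -0.92 to 1.31) and for Elovl1 it was 0.04 (-0.19 to 0.27). The counts of members that passed for the product and the interaction were 0 under all alternatives tried, the Cyber-T test among them. Of all 9806 symbols, Cyber-T called 30 higher and 39 lower for the product at ZT0, and 15 and 8 at ZT12. It called 43 and 36 over both times, and 46 and 31 in the interaction.

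**Figure D3:**
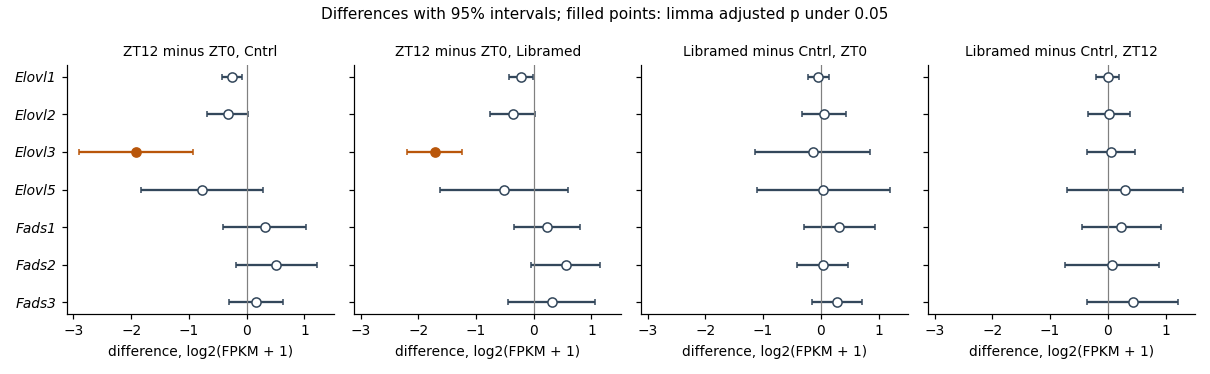
Differences on the scale of log2(FPKM + 1) for the 7 tested members, with 95% intervals, for ZT12 minus ZT0 in each treatment and Libramed minus Cntrl at each time. Filled points have a limma adjusted p under 0.05, which holds for Elovl3 between the times in both treatments.

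The mice of a group differed in these transcripts together. In each of the 4 groups the same mouse had the lowest value of Elovl1, Elovl2, Elovl5, Fads1, Fads2, Scd2 and Scd1, namely Cntrl ZT0 replicate 2, Cntrl ZT12 replicate 1, Libramed ZT0 replicate 1 and Libramed ZT12 replicate 3. Of the 7 tested members 5 shared the lowest mouse of Scd1 in all 4 groups, beside 4.46% of all symbols. Fads3 shared it in 3 groups and Elovl3 in 2. The pattern was seen in the values before it was counted, so the count is a description and was given no test. One of these mice is the library with muscle transcripts, and the part of those transcripts in its low values was not tested.

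**Figure D4:**
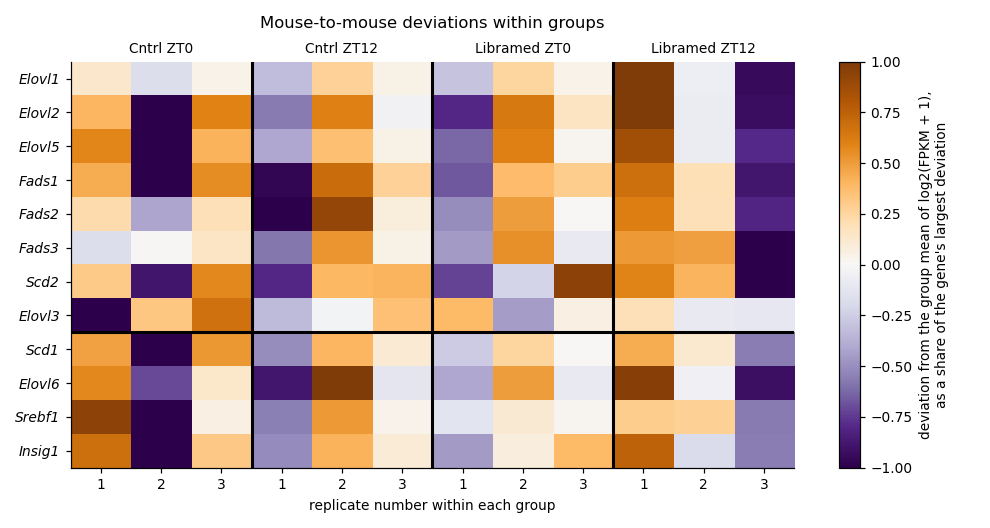
Deviation of each mouse from its group mean of log2(FPKM + 1), as a share of the gene's largest deviation, for the 8 members and 4 related genes in the 12 mice. In each group 1 column is negative for Elovl1, Elovl2, Elovl5, Fads1, Fads2, Scd2 and the 4 related genes. Elovl3 is lowest in that column in 2 of the 4 groups only.

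Some related genes had the same lowest mice. Elovl6, the elongase of palmitate, Srebf1 and Insig1, an SREBP target that holds the precursor in the endoplasmic reticulum, were lowest in those mice in all 4 groups, while Insig2 was lowest in them in 0. The highest mouse for Scd1 was also the highest for Elovl6 and Srebf1 in 3 of the groups and for Insig1 in 2. Scd1 ranged from 11.7 to 528 FPKM in Cntrl ZT0 (45.3-fold), from 47.9 to 455 in Cntrl ZT12 (9.50-fold), from 125 to 447 in Libramed ZT0 (3.59-fold) and from 105 to 1233 in Libramed ZT12 (11.7-fold). The spread of Elovl1 in those groups was between 1.03-fold and 1.20-fold. Scd1 did not pass between the times in Cntrl (log2 difference 0.20, SE 1.53, limma adjusted p = 0.949) or in Libramed (0.82, SE 0.88, limma adjusted p = 0.592).

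Srebf1 itself was at 82.9 ± 44.7 FPKM in Cntrl ZT0, 96.7 ± 29.7 in Cntrl ZT12, 87.4 ± 6.15 in Libramed ZT0 and 186 ± 48.7 in Libramed ZT12 (SD, n = 3). It rose at ZT12 in Libramed mice (log2 difference 1.04, SE 0.20, limma adjusted p = 0.0183), while the difference in Cntrl was 0.32 (SE 0.42, adjusted p = 0.670). The difference between these differences was 0.72 (SE 0.51, adjusted p = 0.849) and did not pass. At ZT12 every Libramed mouse was above every Cntrl mouse by a narrow margin (lowest 130 against highest 127 FPKM). The same held for 577 of all 9806 symbols. The log2 difference of Srebf1 was 0.94 (SE 0.28, limma adjusted p = 0.729). Insig2, another retention factor of the SREBP precursor, fell at ZT12 in Cntrl (-1.33, SE 0.10, adjusted p = 0.00258) and in Libramed (-1.28, SE 0.14, adjusted p = 0.00342).

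Partner enzymes were read from lists written by hand, and counted over both treatments, where 15.9% of all symbols were higher at ZT12 and 14.1% lower. Of the 5 tested partners of the elongation cycle, 1 was higher at ZT12 and 0 were lower. It was Hacd3, a dehydratase of the cycle (0.31, SE 0.05, limma adjusted p = 0.00163). The median difference of the list was 0.14, beside 0.0078 for all symbols. Of the 5 tested electron donors, 2 were higher and 1 lower (median -0.12). Cyb5a, the microsomal cytochrome b5 that hands electrons to desaturases, rose from 1743 ± 79.6 to 2667 ± 103 FPKM in Cntrl and from 1937 ± 227 to 2760 ± 245 FPKM in Libramed (SD, n = 3; log2 difference over both 0.56, SE 0.07, adjusted p = 0.000254). Cyb5r3, its reductase, was also higher (0.48, SE 0.14, adjusted p = 0.0233), and Cyb5b, the mitochondrial form, was lower (-0.41, SE 0.13, adjusted p = 0.0387). Of the 4 tested elongases and desaturases outside the members (Elovl6, Scd1, Degs1 and Fads6), 0 were called (median 0.23).

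Peroxisomes shorten the longest polyunsaturated chains in the last step to DHA. Of 13 tested genes of that step, 7 were higher at ZT12 over both treatments, beside 15.9% of all symbols, and 1 was lower, beside 14.1% (median 0.35). Acaa1b, a thiolase, had a log2 difference of 0.92 (SE 0.11, limma adjusted p = 0.000175), and Decr2, which reduces double bonds, of 0.86 (SE 0.07, adjusted p = 1.6e-05). Crot, which exports the shortened chains as carnitine esters, fell by 0.92 (SE 0.15, adjusted p = 0.00103). Of 9 tested genes that activate, carry or incorporate polyunsaturated acids, 3 were higher and 0 lower, beside the same shares (median 0.14). Mfsd2a, a lysophospholipid carrier of DHA, rose from 17.3 ± 9.30 to 96.0 ± 29.3 FPKM in Cntrl and from 18.3 ± 3.42 to 122 ± 11.2 FPKM in Libramed (SD, n = 3; log2 difference over both 2.61, SE 0.26, adjusted p = 4.8e-05).

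Of 14 tested regulators, 5 were higher and 4 lower at ZT12 over both treatments (median 0.11), beside 15.9% and 14.1% of all symbols. The lower ones included Nr1d1, the clock repressor REV-ERBα (-2.35, SE 0.24, limma adjusted p = 4.5e-05), Insig2 (-1.30, SE 0.09, adjusted p = 5.2e-06) and Insig1 (-0.81, SE 0.24, adjusted p = 0.0267). The higher ones included Ppara, a fatty acid receptor (0.40, SE 0.11, adjusted p = 0.0197), and Pparg (0.56, SE 0.17, adjusted p = 0.0295). For Pparg the average joined a log2 difference of 1.04 (SE 0.26, adjusted p = 0.0530) in Cntrl and one of 0.08 (SE 0.18, adjusted p = 0.794) in Libramed, and the interaction was -0.95 (SE 0.34, adjusted p = 0.663). For the product at either time, over both times and in the interaction, 0 genes of any of these lists passed.

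The genes most like the 3 called elongases over the 12 libraries were found by Pearson's r of log2(FPKM + 1), as a description of libraries that share 4 groups. For Elovl1 they were Tars (r = 0.965), Tjp3 (r = 0.964) and Rhod (r = 0.958). For Elovl2 they included Camk1d (r = 0.969) and Abtb2 (r = 0.946). For Elovl3 they were Eps8l2 (r = 0.966), Clpx (r = 0.964) and Ncoa5 (r = 0.962). No gene was among the nearest of more than 1 of the 3 elongases.

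Markers of other cells were read beside these results. The summed adipocyte markers were highest in Cntrl ZT12 (21.1 to 52.4 FPKM). They were at 10.8 to 14.0 FPKM in Cntrl ZT0, 7.18 to 11.5 FPKM in Libramed ZT0 and 9.06 to 23.5 FPKM in Libramed ZT12. Of the 7 markers, 4 (Adipoq, Lep, Plin1 and Retn) were under 0.1 FPKM in every library, which leaves Cidec, Cfd and Adrb3. The paper describes Cidec as a PPARγ target in liver, so this sum cannot be read as fat cells alone. The summed hepatocyte markers were at 38087 to 43953 FPKM in Cntrl ZT0, 37294 to 41067 in Cntrl ZT12, 43877 to 53616 in Libramed ZT0 and 42330 to 52963 in Libramed ZT12. The summed endothelial markers were lower at ZT12 without overlap in both treatments, at 25.8 to 35.1 FPKM in Cntrl ZT0 and at most 22.2 FPKM in Cntrl ZT12, and at 33.2 to 41.5 FPKM in Libramed ZT0 and 20.5 to 22.5 FPKM in Libramed ZT12. None of their 7 markers was under 0.1 FPKM in every library. Sums were also lower at ZT12 without overlap for pancreas markers in Cntrl (47.2 to 70.0 against 30.2 to 45.8 FPKM). Of these pancreas markers, 4 of 5 were under 0.1 FPKM in every library, which leaves Cela1. In Libramed, sums were lower at ZT12 without overlap for stellate markers (51.1 to 68.8 against 25.0 to 44.0 FPKM), erythroid markers (754 to 886 against 494 to 745 FPKM) and T and B cell markers (1.27 to 1.62 against 0.587 to 0.827 FPKM). The sums of macrophage, cholangiocyte and neutrophil markers overlapped between the times in both treatments. Some sums did not overlap between the treatments. At ZT12 the hepatocyte sum was higher in Libramed than in Cntrl, and the cholangiocyte sum was lower (26.4 to 38.5 against 41.5 to 43.8 FPKM). At ZT0 the macrophage sum was lower in Libramed (16.0 to 28.5 against 28.8 to 35.9 FPKM). The T and B cell sum was higher there (1.27 to 1.62 against 0.296 to 1.12 FPKM). The part of these cells in the differences above was not tested.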

How the data were processed

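Liver RNA of 12 mice was measured by RNA-seq, with groups and replicate numbers taken from the labels. The authors deposited 1 table of FPKM per gene and library, a unit their methods call RPKM. Their methods describe stranded, single-end mRNA libraries aligned uniquely to mm10 with ELAND, whereas a TruSeq RNA v2 kit stands in the labels and the submitters' processing notes name TopHat, Cuffnorm, mm10 and GRCm38, and the strand of counting is not given in the sources used here. The table has 24138 lines. Where a symbol was repeated (289 lines), only its highest line by mean was used. This gave 23849 symbols, and 6783 of these were 0 throughout. FPKM summed to 634683 to 759355 per library. Single-read steps were not sharp among low genes (at most 1.49% of them fell in 1 narrow bin of the ratio between libraries), so the depth of the libraries is unknown and no counting error is given. The spread of 3 mice per group sets the precision.

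The 9806 symbols whose mean reached 1 FPKM were tested as log2(FPKM + 1) in R 4.3.3 by limma 3.58.1, using moderated variances that follow a trend on the mean, two-sided, with Benjamini-Hochberg adjustment over all of them and a threshold of 0.05. Times and treatments were compared in fits of the 6 libraries concerned, and the averages and the interaction in a fit of 12. The calculations were tested on simulated data. The members and gene lists were chosen with earlier results of these data known. The rule named all 8 members, list genes with an adjusted p under 0.05 (at most 4 per list and comparison), Srebf1, Insig1, Insig2, Scd1 and Elovl6, and the 3 genes nearest to each called member. Some genes that this rule names are not reported here. Marker genes are from lists written by hand, while Cdc20, Pitx3, Alb and the within-mouse ratios were chosen after the values were seen.

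Alternatives changed 1 choice at a time. They were median-ratio scaling, quantile normalization, a pseudocount of 0.1, a minimum mean of 5 FPKM or none, Cyber-T with a prior weight of 10 over 101 genes, no variance trend, the replicate number as a block, 1 fit over all 12 libraries, an unadjusted p, and each library left out in turn.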

Additional observations from a re-analysis of the deposited data

How the results depend on the processing

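Of the members' log2 differences under the alternatives, 746 kept their direction and their side of the threshold, 17 no longer passed, 9 newly passed and 61 changed sign. For ZT12 against ZT0 in Cntrl, 1 member passed. A minimum mean of 5 FPKM, 1 fit over all 12 libraries and an unadjusted p each gave 2 (Elovl1 and Elovl3), no minimum gave 1 (Elovl1 in place of Elovl3), and the counts without 1 library ranged from 0 to 1. In Libramed, 1 passed, Cyber-T gave 2 (Elovl3 and Fads2), an unadjusted p gave 2 (Elovl1 and Elovl3), and the count was 1 without any 1 library. Of all 9806 symbols, Cyber-T called 852 higher and 732 lower, and 15.7% and 13.4% had an unadjusted p under 0.05. Without 1 library, 231 to 431 symbols passed lower. Over both treatments, 3 passed, and Cyber-T gave 5 (Elovl5 and Fads2 added), while it called 1465 of all 9806 symbols higher and 1317 lower. An unadjusted p gave 3 lower and 1 higher (Fads2 added), beside 19.4% and 21.8% of all symbols. No minimum and median-ratio scaling gave 2 (Elovl2 lost), and the counts without 1 library ranged from 2 to 3. Lower symbols numbered 1503 of 17066 with no minimum and 1344 of 9806 with that scaling. Without 1 library, 1125 to 1382 symbols passed lower. The product and the interaction gave 0 members in every alternative, though other symbols passed under some, Cyber-T among them. The cause of these changes was not tested.

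Values that changed sign were small or uncertain. Elovl1 for the product at ZT12 was 0.011 under median-ratio scaling, and Fads2 for the interaction was -0.0071 under quantile normalization. The others changed sign only when 1 library was left out, with these lowest and highest log2 values. For Elovl1 the interaction ranged from -0.025 to 0.10, the product at ZT12 from -0.070 to 0.058 and over both times from -0.057 to 0.0064. For Elovl2 the interaction ranged from -0.18 to 0.11, the product at ZT0 from -0.088 to 0.17, at ZT12 from -0.12 to 0.16 and over both times from -0.033 to 0.11. For Elovl3 the interaction ranged from -0.13 to 0.69, the product at ZT0 from -0.63 to 0.19, at ZT12 from -0.10 to 0.23 and over both times from -0.28 to 0.13. For Elovl5 the interaction ranged from -0.20 to 0.78, the product at ZT0 from -0.48 to 0.37, at ZT12 from -0.15 to 0.71 and over both times from -0.092 to 0.38. For Fads1 the interaction ranged from -0.35 to 0.19 and the product at ZT12 from -0.028 to 0.48. For Fads2 the interaction ranged from -0.28 to 0.33, the product at ZT0 from -0.13 to 0.19, at ZT12 from -0.25 to 0.36 and over both times from -0.11 to 0.20. For Fads3 the interaction ranged from -0.056 to 0.51 and ZT12 against ZT0 in Cntrl from -0.034 to 0.37.

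The replicate block gave 1 member in Cntrl, 1 in Libramed and 2 over both treatments (Elovl2 lost). Of all 9806 symbols, 141, 293 and 1334 then passed lower. Deviations of mice with the same number correlated from -0.28 to 0.34 over 18 pairs, over 0.1 in 4 of them, so the numbers were not taken to pair the mice. With no counts, a low gene such as Fads3 cannot be given a counting error, and 3 mice per group leave intervals of several fold for Elovl5.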
